A study of Homo sapiens with 6 samples.

Results

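The genes described here belong to the machinery that fuses secretory and transport vesicles with their target membranes: synaptotagmins, synaptotagmin-like proteins, syntaxins, syntaxin-binding proteins, VAMPs, SNAP-25 relatives and the CADPS priming factors. They were chosen by symbol alone, using the RefSeq symbol matched to the gene ID of each feature. Every gene was taken whose symbol starts with SYT, SYTL, STX, STXBP, VAMP or SNAP and a digit, or with CADPS. The feature with the highest mean stood for a gene. This gave 56 genes on 60 features, of 14884 genes in all. Of the 56, 50 are protein-coding. The other 6 only carry the symbol start. They are the antisense transcripts SNAP25-AS1, STX18-AS1 and STXBP5-AS1, the divergent transcript STX17-DT, the read-through transcript STX16-NPEPL1 and the pseudogene SYT14P1. The only symbol of the SNAP type was SNAP25-AS1, so the SNAP-25 proteins are not analysed here although the name of the group includes them.

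Fusion is carried out by SNARE proteins. A VAMP on the vesicle pairs with a syntaxin and a SNAP-25 relative on the target membrane, and the bundle they form pulls the membranes together. Syntaxin-binding proteins of the Munc18 type hold the syntaxin ready, tomosyns and amisyn occupy it and hold fusion back, CADPS proteins prime dense-core granules, and calcium-binding synaptotagmins trigger release. In intestinal epithelium the same families deliver proteins to the apical and basolateral surfaces and release mucin from goblet cells.

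Expression was measured on 6 Affymetrix whole-transcript arrays, 3 with RNA of SW480 spheroids and 3 with RNA of SW620 spheroids. SW480 is a colorectal cancer line from a primary tumour and SW620 a line from a lymph node metastasis. The cells of both grew in suspension, in a medium without serum to which growth factors were added, and this was meant to enrich tumour-initiating cells, and the study asked how that compartment differs between the lines. No adherent culture, sorted fraction or further line of either origin was among the arrays. The 3 arrays of a line are described as technical replicates, so p-values here measure the spread between such arrays and not between cultures. The deposited values were read as log2 and ranged from 1.99 to 13.92, with array medians from 4.04 to 4.07. Across features, which are no replicates, r was 0.988 to 0.992 within a line and 0.963 to 0.965 between the lines. The epithelial markers EPCAM (9.71 in SW480 and 9.61 in SW620), KRT18 (11.6 and 11.7) and VIL1 (8.76 and 9.38) were bright in both lines, whereas CDX1 and KRT20 stayed below the median feature of 4.065 in both. Of 9 measured epithelial markers, limma called 4 higher and 1 lower in SW620 at an adjusted p below 0.05. The largest differences were those of CEACAM5, a surface glycoprotein, at 3.93 in SW480 and 6.35 in SW620 (5.37-fold higher), and of CDX2, an intestinal transcription factor, at 6.22 and 4.68 (2.90-fold lower). The endothelial markers PECAM1 and VWF, the monocyte marker CD14 and the neuronal marker STMN2 were below that median in both lines. Above it in both lines were SYP (4.61 and 4.59) and INSM1 (4.39 and 4.43) of the neuron and endocrine markers. So were CD68 (5.92 and 6.35) and LAPTM5 (6.25 and 5.84) of the leukocyte markers. Of 5 measured neuron and endocrine markers, 0 were higher in SW620 and 1 was lower (CHGA, -0.35), and of 3 measured leukocyte markers CD68 was higher (0.43) and LAPTM5 lower (-0.41). Their part in the differences below was not tested.

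In limma's moderated test with Benjamini-Hochberg adjustment over all genes, 25 of the 56 genes differed between the lines at an adjusted p below 0.05, or 44.6%, with 12 higher and 13 lower in SW620. Of all genes tested, 35.6% passed the same threshold, 16% in the higher and 19.5% in the lower direction. A difference of at least 2-fold was found for 9 of the 56, against 6.07% of all genes. Of these 9, 5 were higher, against 2.32% of all genes, and 4 lower, against 3.76%. Of the 56 genes, 31 had arrays that did not overlap between the lines, against 45.7% of all genes. The median difference, SW620 minus SW480 on the log2 scale, was 0.013 over the 56 genes and 0.013 over all genes. Members were called in both directions in near equal number. Among the 50 protein-coding members 24 passed, 12 in each direction, or 48%, against 39.5% of all protein-coding genes, and among the 6 other transcripts only STX17-DT did. In 16 of the 56 genes both lines had a mean below the median feature, and in 7 both were below the 25th percentile feature (3.53). At such low values RMA can make a fold look smaller than it was. In RNA from whole cultures, fewer cells that express a gene and less RNA per cell cannot be told apart.

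**Figure D1:**
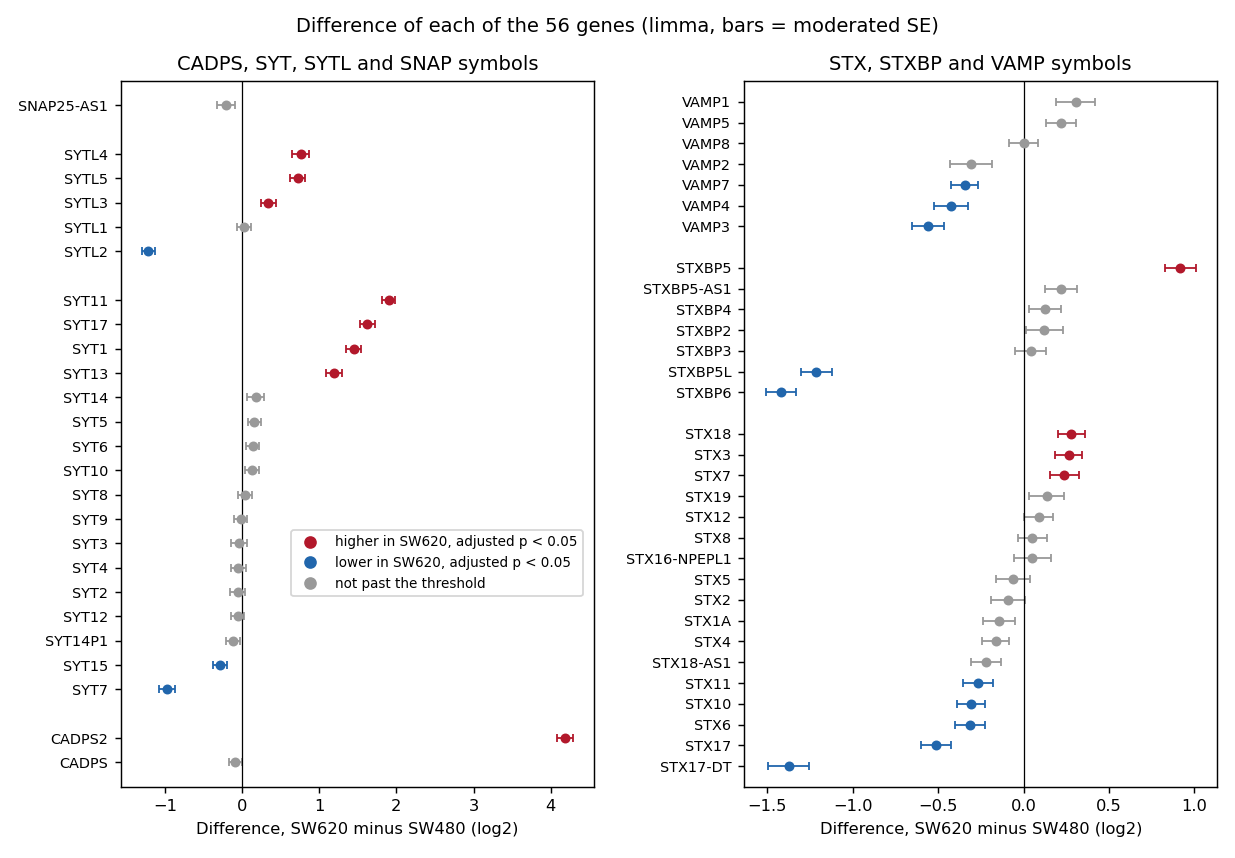
Difference between the lines for each of the 56 genes, SW620 minus SW480 on the log2 scale, with the moderated standard error of limma as bars and the genes sorted within each family. The horizontal scales of the panels differ, since CADPS2 alone reaches 4.18. Red and blue points passed an adjusted p of 0.05 in the higher and lower direction, 12 and 13 genes, and grey points did not.

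The priming factors separated sharply from each other. CADPS2, on chromosome 7, encodes a protein that prepares dense-core granules for calcium-triggered release. Its values were 4.47, 4.42 and 4.10 on the SW480 arrays and 8.49, 8.55 and 8.50 on the SW620 arrays. The SW480 arrays lay just above the median feature, all SW620 arrays were far above them, and the lines did not overlap. The difference was 4.18 (standard error 0.103, adjusted p = 9.59e-12 in limma, n = 3 arrays per line), an 18.2-fold higher signal in SW620, and no other gene of the 56 differed by as much. Its paralog CADPS, the form first described in neurons and endocrine cells, was dim in both lines (3.32 and 3.24) and differed by -0.088 (adjusted p = 0.492 in limma; 95% confidence interval -0.28 to 0.10).

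Among the calcium sensors, the synaptotagmins, 17 symbols were measured. Of these 4 were higher in SW620, 2 were lower and 11 did not pass, so that 35.3% were called, close to the 35.6% of all genes. SYT1, the fast calcium sensor of synaptic vesicles, read 6.37, 6.46 and 6.49 on the SW480 arrays and 8.05, 7.79 and 7.82 on the SW620 arrays. It was above the median feature in both lines, and the difference of 1.44 (standard error 0.0928, adjusted p = 5.92e-08 in limma) made it 2.72-fold higher in SW620. The other 3 synaptotagmins that rose are usually counted among the forms without calcium-dependent membrane binding. SYT11 went from 3.64, 3.44 and 3.58 in SW480 to 5.52, 5.47 and 5.37 in SW620. That is a difference of 1.90 (standard error 0.0885, adjusted p = 2.75e-09 in limma), or 3.73-fold, from a level below the median feature. SYT17 had values of 4.43, 4.33 and 4.25 in SW480 and 6.04, 6.04 and 5.80 in SW620, a 3.08-fold rise (1.62, standard error 0.0955, adjusted p = 2.60e-08 in limma). SYT13 had values of 3.98, 3.73 and 3.75 in SW480 and 5.18, 4.98 and 4.89 in SW620, a 2.29-fold rise (1.197, standard error 0.103, adjusted p = 1.04e-06 in limma). Its SW480 mean was below the median feature. For each of these 4 genes every SW620 array exceeded every SW480 array.

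SYT7, a high-affinity calcium sensor found on lysosomes and secretory granules, went the other way. It read 5.47, 5.65 and 5.47 in SW480 and 4.48, 4.41 and 4.75 in SW620, and was 1.97-fold lower in SW620 (-0.98, standard error 0.103, adjusted p = 6.72e-06 in limma) with no overlap between the lines. SYT15 was dim in both lines (3.79 and 3.50) and differed by -0.29 (adjusted p = 0.0263 in limma), a call that was lost when some single arrays were left out. The adjusted p was 0.0752 without SW480 replicate 1, 0.0883 without SW480 replicate 3, 0.106 without SW620 replicate 1 and 0.0678 without SW620 replicate 2, with differences from -0.23 to -0.28. The 11 that did not pass were SYT2, SYT3, SYT4, SYT5, SYT6, SYT8, SYT9, SYT10, SYT12, SYT14 and SYT14P1. Their differences ran from -0.12 to 0.18, and 9 of the 11 were below the median feature in both lines. SYT5, found on dense-core granules, had means above the median in both lines (4.69 and 4.85) and a difference of 0.16 (adjusted p = 0.179 in limma).

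**Figure D2:**
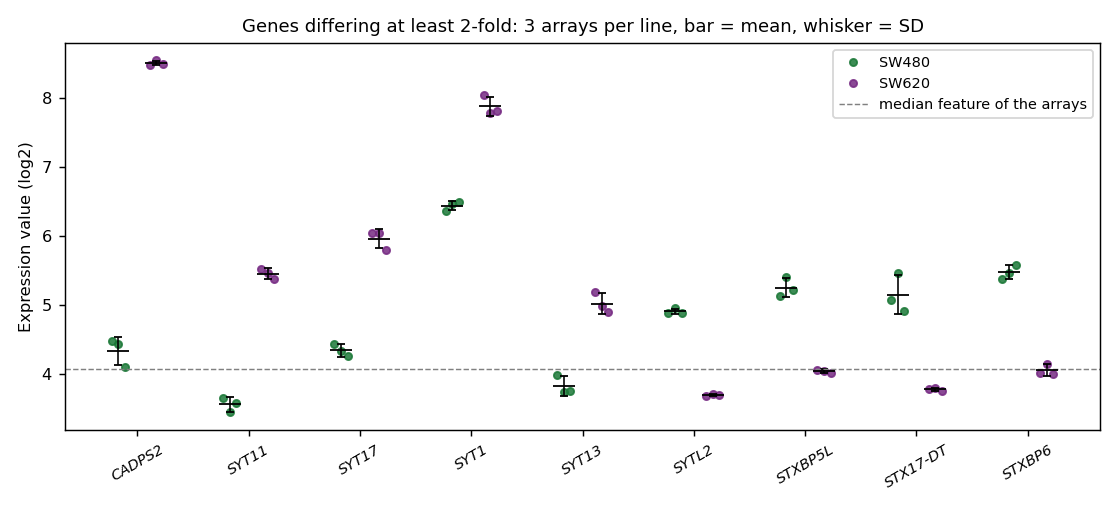
Expression values on the log2 scale of the 9 genes that passed the test with at least a 2-fold difference, ordered by their difference. Each point is 1 array, the bars and whiskers are the mean and SD of 3 arrays, and the dashed line is the median feature (4.065). In CADPS2, SYT11, SYT17, SYT1 and SYT13 all purple SW620 points lie above the green SW480 points, and in SYTL2, STXBP5L, STX17-DT and STXBP6 all lie below them.

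Promoter sequence is shown for SYT1 and SYT11, which rose in SW620, and for the tomosyn paralogs STXBP5 and STXBP5L, which moved in opposite directions as described below. The stretches are the 250 bases before the gene start in RefSeq (GRCh38.p14), written 5′ to 3′ on the gene's own strand. They lie at chr12:78864524-78864773, plus strand (SYT1), chr1:155859317-155859566, plus strand (SYT11), chr6:147204167-147204416, plus strand (STXBP5) and chr3:120907955-120908204, plus strand (STXBP5L). Capitals mark matches to 3 motifs on either strand. The GC box has the letters GGGCGG, the CCAAT box is the motif its name spells, and the core of ETS factor sites is spelled CGGAAG. None of the marked matches overlap.
SYT1: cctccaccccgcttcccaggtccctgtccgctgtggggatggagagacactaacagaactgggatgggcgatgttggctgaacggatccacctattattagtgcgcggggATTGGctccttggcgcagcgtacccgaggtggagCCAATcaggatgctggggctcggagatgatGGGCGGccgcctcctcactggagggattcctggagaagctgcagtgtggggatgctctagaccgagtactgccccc
SYT11: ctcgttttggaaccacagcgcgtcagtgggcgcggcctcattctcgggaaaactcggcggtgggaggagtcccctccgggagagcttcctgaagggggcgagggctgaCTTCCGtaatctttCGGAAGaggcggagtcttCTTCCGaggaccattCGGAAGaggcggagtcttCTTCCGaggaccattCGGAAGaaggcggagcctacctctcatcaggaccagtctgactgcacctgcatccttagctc
STXBP5: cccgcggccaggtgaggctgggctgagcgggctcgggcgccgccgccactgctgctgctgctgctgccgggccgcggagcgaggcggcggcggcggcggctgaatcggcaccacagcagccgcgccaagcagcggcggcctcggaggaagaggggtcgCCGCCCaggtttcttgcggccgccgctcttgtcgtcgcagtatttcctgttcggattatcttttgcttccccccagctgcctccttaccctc
STXBP5L: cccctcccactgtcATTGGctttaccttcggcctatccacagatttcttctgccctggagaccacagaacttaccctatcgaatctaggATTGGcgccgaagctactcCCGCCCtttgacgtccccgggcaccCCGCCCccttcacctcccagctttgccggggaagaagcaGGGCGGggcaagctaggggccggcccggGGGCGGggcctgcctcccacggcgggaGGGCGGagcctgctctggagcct
SYT1 held 1 GC box and 2 CCAAT boxes, STXBP5L 5 GC boxes and 2 CCAAT boxes, and STXBP5 1 GC box. SYT11 held neither of these boxes but 6 ETS cores, and its longest exact repeat, whose copies overlap, is 42 bases long. Of 35114 RefSeq windows of the same length, 42.6% held a GC box, 32% a CCAAT box and 16.5% an ETS core. At least 6 ETS cores were held by 0.0342%, and 0.578% had an exact repeat as long as that of SYT11. Members had 64 windows, more than 1 for some genes. An ETS core was in 1 of 16 windows of members higher in SW620, that of SYT11. Lower members held it in 6 of 12 windows, with VAMP7 counted on both sex chromosomes, and members that did not pass in 7 of 36. CpG pairs numbered 13 in SYT1, 19 in SYT11, 30 in STXBP5 and 16 in STXBP5L, against a median of 11 over all windows. Over the windows of all members the median was 20.5. It was 9.0 in windows of members higher in SW620, 18.5 in those of lower members and 22.0 in those of members that did not pass. A further 3 motifs were searched on both strands and were not among the letters of these 4 windows. They were the TATA box TATAAA, in 10.7% of all windows, the cyclic AMP response element TGACGTCA, in 1.65%, and the left part TCAGCACC of the site of the neuronal repressor REST, in 1.32%. The CCAAT and ETS motifs were added after the sequences had been seen, and a match is a description of letters and not of a bound site. A RefSeq window was at hand for 44 of the 56 genes.

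The synaptotagmin-like proteins SYTL1 to SYTL5 tether vesicles to the plasma membrane by binding RAB27, and 4 of the 5 differed. That is 80% called, against 39.5% of all protein-coding genes. SYTL2 read 4.89, 4.95 and 4.89 in SW480 and 3.68, 3.71 and 3.69 in SW620. It was 2.32-fold lower in SW620 (-1.21, standard error 0.0788, adjusted p = 6.52e-08 in limma) and ended below the median feature. SYTL4, or granuphilin, which docks insulin granules, went from 4.12, 3.87 and 3.97 to 4.92, 4.81 and 4.51, a 1.69-fold rise (0.76, standard error 0.112, adjusted p = 1.36e-04 in limma). SYTL5 rose 1.65-fold (3.63 ± 0.157 in SW480 and 4.35 ± 0.0796 in SW620, mean ± SD, n = 3 arrays each). SYTL4 and SYTL5 both lie on the X chromosome. SYTL3 differed by 0.34 (adjusted p = 0.0135 in limma), but the adjusted p was 0.0511 without SW620 replicate 1 (difference 0.30) and 0.0604 without SW620 replicate 2 (0.28). SYTL1 did not pass. The SW480 means of SYTL3, SYTL4 and SYTL5 were below the median feature.

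Among the 7 syntaxin-binding symbols 1 was higher in SW620, 2 were lower and 4 did not pass (42.9% called, against 35.6% of all genes). The 3 that passed encode proteins known to hold fusion back. STXBP5, or tomosyn, competes with VAMPs for the syntaxin and read 6.40, 6.65 and 6.44 in SW480 and 7.47, 7.38 and 7.40 in SW620. It was 1.89-fold higher in SW620 (0.92, standard error 0.0908, adjusted p = 3.71e-06 in limma). Its paralog STXBP5L, or tomosyn-2, was 5.13, 5.40 and 5.21 in SW480 and 4.055, 4.040 and 4.004 in SW620, which is 2.32-fold lower (-1.22, standard error 0.0907, adjusted p = 2.55e-07 in limma). STXBP6, or amisyn, which carries a VAMP-like segment without a membrane anchor, was 5.37, 5.47 and 5.57 in SW480 and 4.01, 4.15 and 3.99 in SW620. It was 2.68-fold lower (-1.42, standard error 0.0890, adjusted p = 4.57e-08 in limma). In none of these 3 genes did the arrays of the lines overlap, and STXBP5L and STXBP6 had SW620 means just below the median feature. The Munc18 proteins did not pass. STXBP3, or Munc18c, which partners STX4, read 7.47, 7.19 and 7.41 in SW480 and 7.38, 7.41 and 7.40 in SW620, with overlapping arrays (0.041, 95% confidence interval -0.16 to 0.24). STXBP2, or Munc18-2, a partner of STX3 at the apical surface, differed by 0.12 (95% confidence interval -0.11 to 0.35). STXBP4, or synip, which binds STX4, differed by 0.12 and did not pass. STXBP5-AS1, antisense to tomosyn, was below the median feature in both lines and differed by 0.22 (adjusted p = 0.0915 in limma). Its other features differed by -0.034 and 0.038.

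Of 17 syntaxin symbols, 3 were higher in SW620, 5 were lower and 9 did not pass (47.1% called, against 35.6% of all genes). Of the 14 protein-coding ones 50% were called, against 39.5% of all protein-coding genes. None of the 14 reached a 2-fold difference, which 824 of all 11916 protein-coding genes did. STX17, which joins autophagosomes to lysosomes, read 6.57, 6.79 and 6.73 in SW480 and 6.19, 6.19 and 6.17 in SW620, and was 1.43-fold lower (-0.51, standard error 0.0868, adjusted p = 4.07e-04 in limma). STX17-DT, the long non-coding transcript read in the opposite direction from the start of STX17 on chromosome 9, fell together with it. Its values were 5.07, 5.46 and 4.91 in SW480 and 3.77, 3.79 and 3.75 in SW620, which is 2.59-fold lower (-1.37, standard error 0.121, adjusted p = 1.22e-06 in limma). The SW620 mean of STX17-DT was below the median feature. In both genes every SW620 array was below every SW480 array. For STX18 and its antisense transcript the signs were opposite, but only the coding gene passed. STX18, a SNARE of the endoplasmic reticulum, rose (6.90, 6.92 and 6.93 to 7.20, 7.23 and 7.15; 0.28, adjusted p = 0.0143 in limma). STX18-AS1 differed by -0.22 (adjusted p = 0.0707), and its adjusted p was 0.0410 without SW620 replicate 3. The dimmer feature of STX18-AS1 differed by 0.085.

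Syntaxins of the trans-Golgi network and endosomes differed by little. STX10 fell (-0.31, adjusted p = 0.00950 in limma), and so did STX6 (-0.31, adjusted p = 0.0157), both of which act between endosomes and the trans-Golgi network. The call for STX6 was lost without SW480 replicate 3 (adjusted p = 0.0775) and without SW620 replicate 2 (0.0582). STX7, a late endosomal syntaxin, rose by 0.24 (adjusted p = 0.0468). This call was the least stable of the group. It was lost after repeat quantile normalization (0.0868), median centring (0.0588) and cyclic loess (0.0895), and without SW480 replicate 2 (0.150), SW480 replicate 3 (0.122), SW620 replicate 1 (0.153) or SW620 replicate 2 (0.0848). Its late endosomal partner STX8 read 8.16, 8.12 and 8.01 in SW480 and 8.21, 8.18 and 8.05 in SW620, and the lines overlapped (0.052, 95% confidence interval -0.14 to 0.24).

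At the cell surface, STX3, the syntaxin of the apical membrane, read 6.81, 6.80 and 6.90 in SW480 and 7.13, 7.09 and 7.09 in SW620. It was higher in SW620 (0.26, adjusted p = 0.0201 in limma), and the adjusted p was 0.0582 without SW480 replicate 1, 0.0748 without SW480 replicate 2 and 0.0582 without SW620 replicate 1. STX4, the basolateral counterpart, differed by -0.16 and did not pass (adjusted p = 0.140), although its arrays did not overlap. STX1A, the syntaxin of neuronal release sites, differed by -0.15 (95% confidence interval -0.35 to 0.055). STX11, known from cytotoxic lymphocytes, was dim in both lines (3.71 and 3.44) and differed by -0.27 (adjusted p = 0.0266). It lost its call without SW480 replicate 1 (0.0940), SW480 replicate 2 (0.0575), SW620 replicate 1 (0.0752) or SW620 replicate 3 (0.0773). STX2, a plasma membrane syntaxin, STX5, of the Golgi, STX12, of recycling endosomes, STX19 and STX16-NPEPL1 did not pass.

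Among the 7 vesicle SNAREs the test called 3 lower in SW620 and 0 higher, and 4 missed the threshold. That is 42.9% called, near the 39.5% of all protein-coding genes. After repeat quantile normalization the counts were 3 lower and 2 higher, since VAMP1 (0.32, adjusted p = 0.0351) and VAMP5 (0.26, adjusted p = 0.0436) passed as well. VAMP3, or cellubrevin, of recycling endosomes, read 8.74, 8.84 and 8.62 in SW480 and 8.06, 8.19 and 8.25 in SW620, and was 1.47-fold lower (-0.56, standard error 0.0912, adjusted p = 3.00e-04 in limma). VAMP4, a SNARE of the trans-Golgi network, was 6.43, 6.38 and 6.26 in SW480 and 5.738, 6.064 and 5.996 in SW620, which is 1.34-fold lower (-0.43, adjusted p = 0.00462). VAMP7, of lysosomes and late endosomes, was 9.16, 9.13 and 9.11 in SW480 and 8.79, 8.85 and 8.72 in SW620, which is 1.27-fold lower (-0.35, adjusted p = 0.00449). The lines did not overlap in any of these 3. VAMP7 has a copy in the pseudoautosomal part of each sex chromosome, and its other feature differed by -0.35 as well, so these features cannot be taken as separate measurements. VAMP8, the SNARE of mucin granules and other epithelial secretion, had the same mean of 7.16 in both lines, with a 95% confidence interval of -0.19 to 0.19 for the difference, and the sign of its difference (0.00032) turned under several settings. The differences of the neuronal VAMPs had opposite signs and did not pass. VAMP1 differed by 0.30 (adjusted p = 0.0526 in limma) and also passed with 75th percentile centring (0.0305), with either filter on dim genes (0.0472 and 0.0385), with the trended and robust variance (0.0404) and without SW480 replicate 2 (0.0111). VAMP2 differed by -0.31 (adjusted p = 0.0650) and passed with the stricter filter on dim genes (0.0488) and without SW480 replicate 3 (0.0161) or SW620 replicate 3 (0.0303). VAMP5, of muscle and other peripheral tissues, differed by 0.22 (adjusted p = 0.0758), and its arrays did not overlap between the lines. The last symbol of the group, SNAP25-AS1, read 3.42, 3.21 and 3.75 in SW480 and 3.21, 3.27 and 3.27 in SW620, below the median feature throughout (-0.21, adjusted p = 0.199). It passed when SW480 replicate 2 was left out (0.0421).

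**Figure D3:**
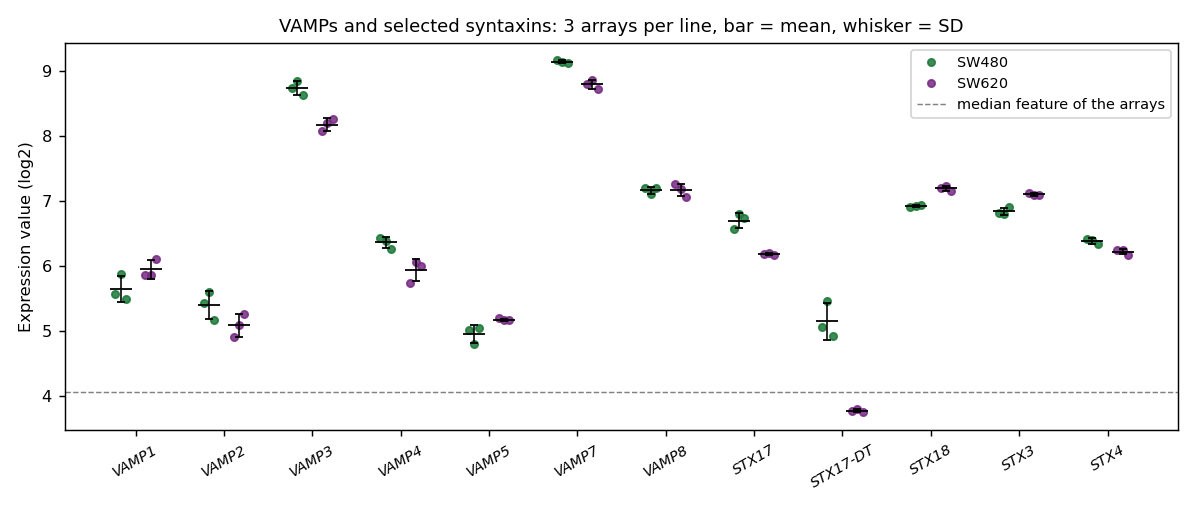
Expression values on the log2 scale of the 7 VAMPs and of STX17, STX17-DT, STX18, STX3 and STX4. Each point is 1 array, the bars and whiskers are the mean and SD of 3 arrays per line, and the dashed line is the median feature (4.065). SW620 lies below SW480 for VAMP3, VAMP4, VAMP7, STX17 and STX17-DT, and the lines share a mean of 7.16 for VAMP8.

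The genes next to the 9 with at least a 2-fold difference were examined to see whether these stood alone on their chromosomes. For each, the 5 nearest measured protein-coding genes on either side were taken. Of all protein-coding genes, 39.5% were called. Around CADPS2, 2 of the 10 neighbours were higher in SW620 and 3 were lower. The median difference was -0.0062, but the differences ran from -1.11 to 2.40. Around SYT1 and SYT17 the counts were 3 higher and 3 lower each, and around SYT13 they were 2 and 2. Differences ran from -0.76 to 0.34 around SYT1 and from -0.81 to 0.62 around SYT13. Around SYT17 they ran from -1.29 to 1.73, beyond the 1.62 of SYT17 itself. SYT11 had 2 higher and 0 lower neighbours (median 0.15, range -0.25 to 0.42). SYTL2, which itself fell, had 4 higher and 1 lower (median 0.19, range -0.31 to 0.90). Around STXBP6 2 neighbours were higher and 2 lower (range -0.36 to 0.69), and around STXBP5L 0 were higher and 3 lower (range -0.40 to 0.094). Only around STX17-DT did all 10 neighbours, STX17 among them, have differences below 0. They ran from -0.51 to -0.018 with a median of -0.19. Of these 10, 4 passed the test, close to the 39.5% of all protein-coding genes.

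Other genes of vesicle fusion were read from the same fit to place these members. Of 61 measured partners 29 differed, or 47.5%, with 15 higher and 14 lower in SW620. All 61 are protein-coding, and 39.5% of all protein-coding genes were called. The higher count fell to 9 without SW620 replicate 2 and to 10 without SW480 replicate 3. Among 11 measured core SNARE partners outside the symbol rule, 3 were higher and 4 lower (63.6% called). BET1, of transport between the endoplasmic reticulum and the Golgi, fell by 0.57, VTI1B, a partner of STX7 and STX8 in late endosomes, fell by 0.51, YKT6, a SNARE that also acts on autophagosomes, fell by 0.46, and SEC22C rose by 0.44. Among 6 measured genes for SNARE disassembly and for syntaxin chaperones, 3 were higher and 0 lower (50% called). They were SCFD2 (0.37), VPS33A, part of the complex that tethers lysosomes (0.32), and SCFD1 (0.22), the Golgi chaperone of STX5. The call of VPS33A was lost without SW480 replicate 3 (adjusted p = 0.0840), SW620 replicate 1 (0.0567) or SW620 replicate 2 (0.0855). That of SCFD1 was lost in every fit that left out 1 array, with adjusted p from 0.0784 to 0.133, and after repeat quantile normalization (0.0791), median centring (0.0618) and cyclic loess (0.0879).

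Of 17 measured genes for priming, docking and calcium triggering, 3 were higher, 4 were lower and 10 did not pass (41.2% called, close to the 39.5% of all protein-coding genes). RIMS2, a scaffold of release sites, was 2.75-fold lower in SW620 (4.54 ± 0.0441 in SW480 and 3.08 ± 0.0107 in SW620, mean ± SD, n = 3 arrays each). Its SW620 mean was below the 25th percentile feature (3.53), so this fold is not firm. CPLX2, a complexin that clamps SNARE bundles, was 1.93-fold lower. RPH3AL, a RAB27 and RAB3 effector, rose 1.68-fold, and UNC13D, a priming factor of lymphocyte granules, rose 1.53-fold. Of 10 measured exocyst genes, which encode the complex that tethers vesicles to the plasma membrane, 3 were higher and 1 lower (40% called, also close to that share). EXOC2 rose by 0.55 and EXOC6 by 0.37, while EXOC6B, the paralog of EXOC6, fell by 0.60. EXOC8 rose by 0.35 (adjusted p = 0.0229 in limma), a call lost without SW480 replicate 2 (0.110), SW480 replicate 3 (0.0695), SW620 replicate 2 (0.0842) or SW620 replicate 3 (0.0610).

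Cargo and membrane proteins of secretory granules and synaptic vesicles were the final group, with 3 higher, 5 lower and 9 not passing of 17 measured. That is 47.1% called, against 39.5% of all protein-coding genes. VGF, a neuropeptide precursor, was 2.60-fold lower in SW620 (5.07 ± 0.124 and 3.69 ± 0.0683, mean ± SD, n = 3 arrays each). Its SW620 mean was below the median feature. The synaptogyrins, membrane proteins of small vesicles, diverged. SYNGR1, the neuronal form, was 1.81-fold lower and SYNGR2, the widely expressed form, was 1.95-fold higher. SYN1, which ties synaptic vesicles to the cytoskeleton, was 1.59-fold lower, with a SW620 mean of 4.07. The other genes of this list called higher were CPE, the carboxypeptidase that trims prohormones, and CHGB, a granule core protein, both named after their values were seen. CPE rose by 0.56 (adjusted p = 0.00325 in limma) but had means below the median feature in both lines (3.46 and 4.02). CHGB rose by 0.32 (adjusted p = 0.0229), a call lost without SW480 replicate 2 (0.0540), SW480 replicate 3 (0.0670), SW620 replicate 1 (0.0563) or SW620 replicate 2 (0.102).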

How the data were processed

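Per the labels' protocols, RNA was turned into sense cDNA, cut and biotinylated before hybridisation, which keeps the strand. The authors deposited log2 expression values for 53616 features on 6 arrays. The submitters' processing notes name Partek and RMA, with versions not given in the sources used here. The log base was inferred from the values. Of the features, 16098 carried 1 gene symbol in the platform annotation, all with a RefSeq (GRCh38.p14) gene ID. The other 37518, without a single symbol, are unnamed here. That left 14884 genes, with no filter on dim ones.

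Differences (SW620 minus SW480) were tested two-sided with limma 3.58.1 under R 4.3.3, using lmFit and eBayes on all 6 arrays (8.39 prior degrees of freedom, Benjamini-Hochberg over all genes, threshold 0.05). Precision is limited by the number of arrays. The same limma functions were also run on simulated data, with a simpler choice of features. At the threshold of 0.05 they called 28 of 50 simulated differences of 0.5 on the log2 scale and 46 of 50 differences of 1. Members and lists were chosen with earlier results of these data known. Full values are given for members past the threshold with at least a 2-fold difference and arrays that do not overlap, and for the brightest member of each family. Other members are named in counts, and some further values were chosen after they were seen. Up to 4 changed genes are named per partner list. Alternatives were normalization, centring, dim-gene filters, the variance model, the features of a gene, the replicate number as a block, a minimum fold, a stricter threshold and leaving out each array.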

Additional observations from a re-analysis of the deposited data

How the results depend on the processing

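Direction was kept by all 25 members past the threshold under every alternative, and 19 of them also kept their call without each array in turn. The count of changed members ran from 20 to 27 when single arrays were left out, from 24 to 26 under the other scalings, and was 18 at a threshold of 0.01. Requiring more than a 1.2-fold difference (treat) gave 15 members, 7 of them lower in SW620, with 14 protein-coding members, 6 of them lower. It gave 12 partner genes, 4 higher and 8 lower, and 2465 of all genes, 1005 higher and 1460 lower. At a threshold of 0.01, 9 partner genes were higher, and without single arrays that number ran from 9 to 13. The median over the members ran from -0.017 to 0.029 without single arrays and was -0.0085 after cyclic loess, so its sign is not settled. VAMP8 turned to -0.0074 after repeat quantile normalization, to -0.0091 with median centring and to -0.0218 with cyclic loess. Without single arrays it ran from -0.044 to 0.0515, and STXBP3 from -0.041 to 0.0973. The cause was not tested.

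With the replicate number as a block (replicate block), 24 members were called, all among the 25, and STX7 was lost (adjusted p = 0.0561). SCFD1 was also lost (0.0805). Same-numbered arrays did not deviate together over all genes (correlations of -0.0089, -0.023 and -0.012), and 0 of 6 arrays correlated best with their own number. These are deviations of normalized values from line means, so they cannot show whether same-numbered arrays shared a processing step. An alternative without SNAP91 was not run, since that gene was not among the members. The protein-coding count was added after the data had been seen. Without detection calls, members below the median feature have no firm fold.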
